A study of Mus musculus with 2 samples.

Results

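The mouse cell cycle genes described here are 44 of the 27998 genes measured in alveolar type 2 (AT2) cell organoids, taken by their symbols from a list of genes of the cycle. Of these, 15 act at the G1/S transition or in DNA replication, 26 act in G2 and mitosis (G2/M) and 3 encode the D-type cyclins. Droplet-based single-cell RNA sequencing (scRNA-seq) had been performed on control organoids given PBS and on IL-1β-treated organoids, with 1 library each, so that no test between conditions was possible. Both cultures were started from sorted SPC lineage-labeled AT2 cells of tamoxifen-treated SPC-CreERT2;R26RtdTomato mice, of the C57BL/6 strain, and were grown with cultured lung stromal cells for 2 weeks by the series record. The study itself gives a later day for these cells, and differing doses of IL-1β, so the time is uncertain and no dose is given. The stromal cells had been selected as negative for CD31, EpCAM and CD45 and carry no lineage label, and no sort preceded the organoid libraries, so both compartments were sequenced together. Because the IL-1β and PBS cultures were each 1 library, treatment and library cannot be told apart.

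The cell cycle is driven by cyclins bound to cyclin-dependent kinases. D-type cyclins, with CDK4 and CDK6, start the release of E2F factors from RB in response to growth signals, cyclin E with CDK2 completes that release, and E2F then drives genes for the replicative helicase and for nucleotide supply. Genes for mitosis are transcribed later, in G2, by B-MYB and FOXM1 with the DREAM-related complexes. In the alveolus AT2 cells can both divide and give rise to AT1 cells, which are regarded as largely non-dividing.

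Cells were split into an epithelial compartment (1284 control and 2583 IL-1β cells) and a stromal one (793 and 475 cells) by clusters and marker genes. Epcam, the epithelial adhesion molecule that defines the first, was at 205 UMIs per 1000000 UMIs of the compartment (CPM) in control and 300.4 CPM in IL-1β epithelial cells, against 9.39 and 18.1 CPM in stromal cells. The fibroblast collagen gene Col1a2 was at 1449 and 1474 CPM in stromal cells and at 30.7 and 31.9 CPM in epithelial cells. The surfactant gene Sftpc, at 84544 and 58206 CPM in epithelial cells, was also found in stromal cells, at 4.46% of that level in the control library and 7.11% in the IL-1β library, which was taken as the scale of RNA shared between droplets. The median depth was 13922 and 11293 UMIs per epithelial cell and 15735 and 14849 per stromal cell. For shares of cells, every cell was therefore thinned to 4000 UMIs. All intervals are 95% and cover counting error only, not the spread between cultures. Those of levels and ratios take each UMI as a separate draw, so they also leave out the spread between cells.

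Promoters of the 4 G2/M and 3 G1/S members with most UMIs are shown first, since the members of each phase are known to be transcribed together. The stretches are the 150 bases before the annotated RefSeq start (GRCm38.p6), 5′ to 3′ on the strand of the gene. Capitals mark CCAAT, the cell cycle homology letters (CHR) TTTGAA or TTTAAA, and the E2F letters GCGGGAA or GGCGGGA, each searched on both strands.
Cdc20, chr4:118437344-118437493, - strand: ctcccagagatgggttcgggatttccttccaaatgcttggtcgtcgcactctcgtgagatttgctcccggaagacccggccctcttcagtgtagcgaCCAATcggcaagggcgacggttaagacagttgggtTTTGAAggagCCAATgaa
Ube2c, chr2:164769779-164769928, + strand: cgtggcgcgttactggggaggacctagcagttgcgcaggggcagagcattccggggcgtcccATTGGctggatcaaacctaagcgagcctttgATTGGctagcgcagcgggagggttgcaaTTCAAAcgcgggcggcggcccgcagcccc
Cdk1, chr10:69352913-69353062, - strand: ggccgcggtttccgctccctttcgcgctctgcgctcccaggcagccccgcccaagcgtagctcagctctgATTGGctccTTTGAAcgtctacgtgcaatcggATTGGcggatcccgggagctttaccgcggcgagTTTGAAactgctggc
Cenpa, chr5:30666736-30666885, + strand: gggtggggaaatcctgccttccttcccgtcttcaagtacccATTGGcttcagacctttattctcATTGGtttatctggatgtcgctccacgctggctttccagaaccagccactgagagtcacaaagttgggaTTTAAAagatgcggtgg
Pcna, chr2:132253181-132253330, - strand: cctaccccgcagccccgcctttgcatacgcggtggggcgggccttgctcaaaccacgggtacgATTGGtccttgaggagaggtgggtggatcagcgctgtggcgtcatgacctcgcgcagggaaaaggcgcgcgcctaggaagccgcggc
Rrm1, chr7:102441545-102441694, + strand: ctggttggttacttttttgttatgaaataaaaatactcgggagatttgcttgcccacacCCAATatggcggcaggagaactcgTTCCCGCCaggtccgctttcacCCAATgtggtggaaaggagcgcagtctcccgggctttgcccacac
Tyms, chr5:30073626-30073775, - strand: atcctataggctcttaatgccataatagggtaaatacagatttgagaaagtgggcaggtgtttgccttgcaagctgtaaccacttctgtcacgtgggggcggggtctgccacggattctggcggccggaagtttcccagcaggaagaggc
All 4 G2/M stretches held CCAAT more than once and at least 1 CHR, which began 18 bases before the start for Cdc20, 17 for Cenpa and 29 for Ube2c. Rrm1, the large subunit of ribonucleotide reductase, held overlapping E2F letters, and Tyms held none of the letters in this stretch. Over the 250 bases before each start, 23 windows of 22 G2/M members could be matched, and 21 held CCAAT (91.3%) against 33.8% of all 32851 windows. CHR letters stood in 13 of the 23 (56.5%) against 25.2% of all windows, and both together in 12 (52.2%) against 8.78%. Of 14 windows of 12 G1/S members, 7 (50%) held the E2F letters against 11.4% of all, 3 held a CHR and 11 (78.6%) held CCAAT. The E2F letters also stood in 6 of the 23 G2/M windows (26.1%), so CCAAT and the E2F letters were found in windows of both phases. These are matches of letters, not measured binding.

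G2/M genes were lower in IL-1β-treated than in control epithelial cells, every one of them. Added over the 26 members, the control epithelium held 5077 UMIs (265.4 CPM, 258–273) and the IL-1β epithelium 1586 (51.0 CPM, 48.5–53.5), a ratio of 0.192 (0.181–0.203). All 26 had the 50 UMIs needed for a ratio, and all 26 were lower by 2-fold or more, with Bub1b at the limit. In the same comparison 4.62% of 12041 genes were lower and 7.23% were higher by that much. The median log2 ratio was −2.48 for the 26 members and 0.06 for all genes. As every interval stayed below 1, counting error of UMIs alone does not cover these differences. The spread between cells is not in these intervals, and the spread between cultures was not measured. In control, 42 of 1284 cells held 79.6% of these UMIs, as given below, so the 26 ratios are not separate results.

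The kinases of mitosis and their cyclins shared this direction. Cdk1, the kinase of mitotic entry, was at 12.5 CPM in control and 3.21 CPM in IL-1β epithelial cells (ratio 0.256, 0.201–0.325). Its cyclin partners Ccna2, Ccnb1 and Ccnb2 had ratios of 0.105, 0.152 and 0.185. Aurkb, the kinase of the chromosomal passenger complex, had 78 UMIs in control and 5 in IL-1β epithelial cells (ratio 0.0394, 0.0124–0.0959), the lowest ratio of the 26. Birc5, which encodes survivin of the same complex, was at 18.0 and 2.96 CPM (ratio 0.164). Plk1, which acts from centrosome maturation to cytokinesis, had a ratio of 0.213, and Aurka, the spindle pole kinase, of 0.19.

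Genes of the anaphase-promoting complex and of the checkpoint that holds it back were also lower. Cdc20, its mitotic activator, was at 27.4 CPM in control and 4.92 CPM in IL-1β epithelial cells (ratio 0.179, 0.149–0.215). Ube2c, its ubiquitin-conjugating enzyme, was at 26.3 and 4.72 CPM (ratio 0.179, 0.148–0.216). The spindle checkpoint kinase gene Bub1 had a ratio of 0.123, while the related Bub1b had the highest ratio of the 26, at 3.92 CPM in control and 1.96 CPM in IL-1β epithelial cells (ratio 0.50, 0.351–0.71). Cdc20 overlaps Elovl1 on the other strand by 53 bases, and 12 of the 44 members overlap a counted gene in this way. Whether strand was used in counting is not given in the sources used here, so reads in such overlaps are uncertain.

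Chromosome and spindle genes followed the same direction. Top2a (chr11:98992943-99024189), the topoisomerase that untangles sister chromatids, was at 16.3 CPM in control and 1.93 CPM in IL-1β epithelial cells (ratio 0.119, 0.0884–0.157). Mki67 (chr7:135689784-135716361), whose protein Ki-67 coats mitotic chromosomes and marks dividing cells, was at 11.7 and 1.70 CPM (ratio 0.146, 0.106–0.198). Cenpa, the centromeric histone, had a ratio of 0.272 and the kinetochore gene Cenpf 0.346. The kinesin gene Kif11, needed for a bipolar spindle, was at 0.062.

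**Figure D1:**
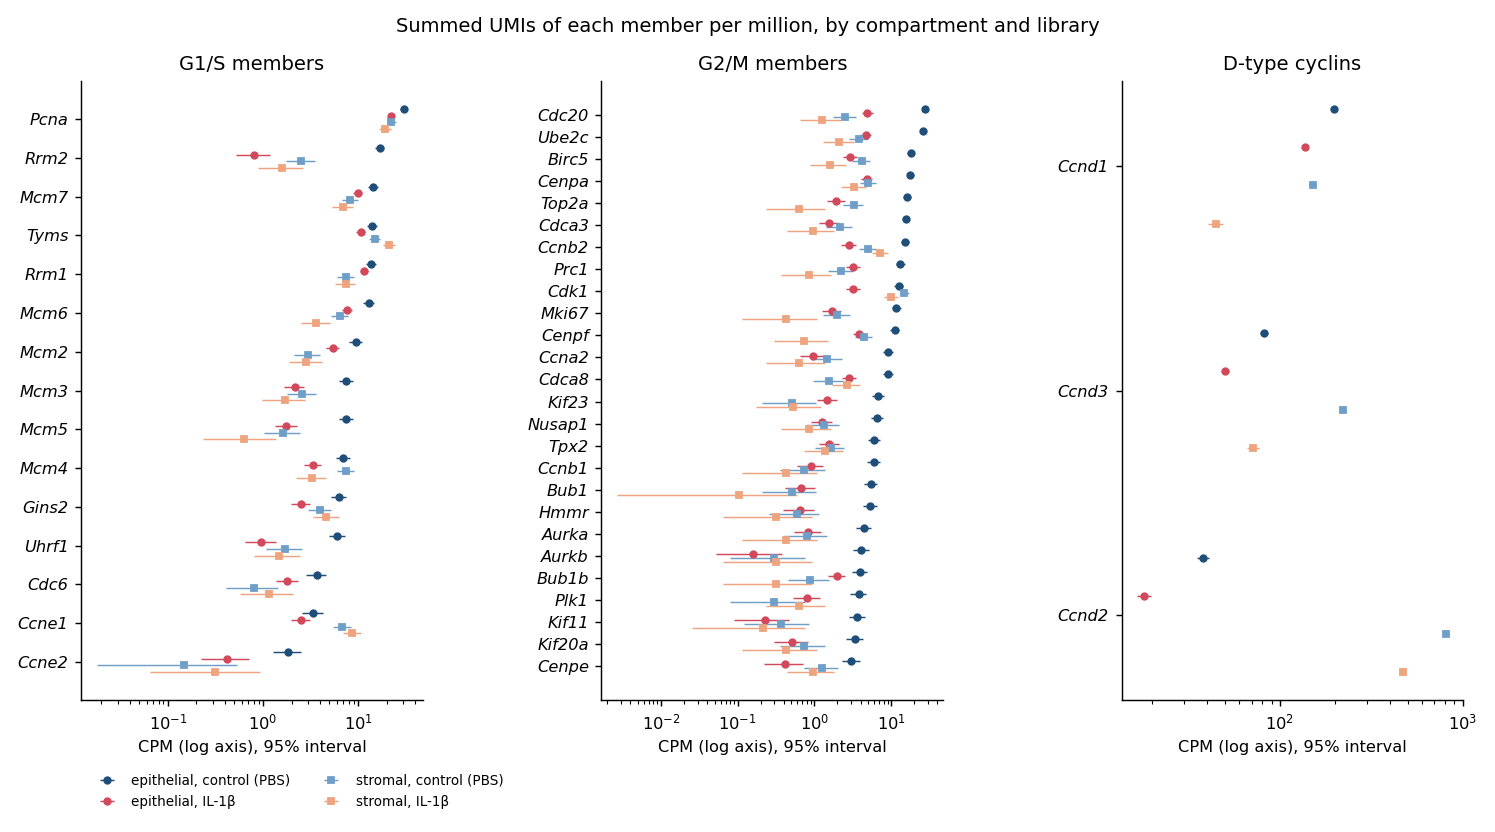
Level of each member (CPM on a log axis, 95% Poisson interval) in epithelial cells (circles) and stromal cells (squares) of the control and IL-1β libraries. Control epithelial cells have the highest level of every G2/M member except Cdk1, and stromal cells of both libraries have the highest Ccnd2.

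G1/S genes were lower as a group but unevenly. The 15 members together held 155 CPM (149–160) in control and 83.9 CPM (80.7–87.2) in IL-1β epithelial cells, a ratio of 0.542 (0.514–0.572). All but Ccne2, with 35 and 13 UMIs, had 50 UMIs, and 7 of these 14 were lower by 2-fold or more and 0 were higher. Of all genes in this comparison, 4.62% were lower and 7.23% higher by that much. The median log2 ratio of the 14 was −0.92. Thus the G1/S ratio sat between that of the G2/M members and that of all genes.

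The spread within G1/S followed no single complex. Rrm2, the small subunit of ribonucleotide reductase, was at 17.0 CPM in control and 0.80 CPM in IL-1β epithelial cells (ratio 0.0473, 0.0302–0.0711), whereas its partner Rrm1 was at 13.6 and 11.6 CPM (ratio 0.851). Uhrf1, which guides maintenance of DNA methylation at replication forks, had a ratio of 0.159. Among the 6 subunits of the MCM helicase the ratio ran from 0.238 for Mcm5 (0.171–0.327) to 0.689 for Mcm7. Pcna, the sliding clamp of DNA polymerase, was at 30.4 and 22.4 CPM (ratio 0.737, 0.66–0.825), and Tyms, the thymidylate synthase, at 14.0 and 10.7 CPM (ratio 0.764). Ccne1, the cyclin of the G1/S switch, had an interval that held 1 (ratio 0.749, 0.531–1.06).

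**Figure D2:**
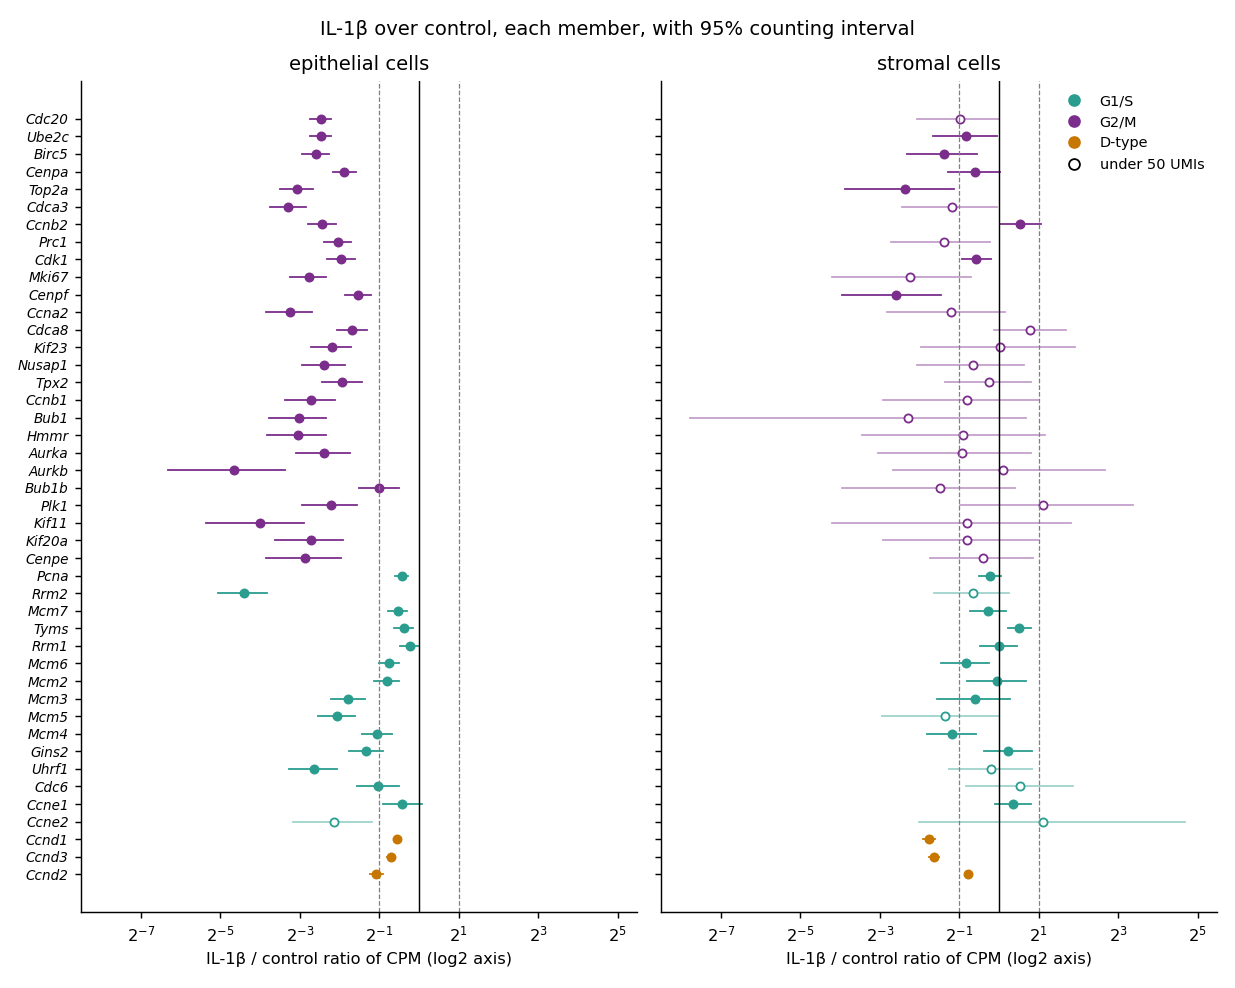
Ratio of IL-1β to control CPM for each member in epithelial and stromal cells (log2 axis, 95% counting interval; dashed lines at 0.5 and 2; open points have under 50 UMIs in the pair). All 26 G2/M members lie at or left of 0.5 in epithelial cells, while G1/S members spread from 0.0473 to 0.851 among those with 50 UMIs.

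The G2/M UMIs of the control epithelium came mostly from few cells. At 4000 UMIs per cell, 42 of 1284 control epithelial cells (3.27%, 2.37–4.40) held 5 or more of the 26 members, against 5 of 2583 IL-1β epithelial cells (0.194%, 0.0629–0.451). The intervals, which cover counting error only, did not overlap, and the spread between cultures was not measured. Without thinning, the shares were 64 cells (4.98%) and 8 cells (0.31%). Near the limit, 7 control cells held exactly 4 members and 8 exactly 5, and 0 and 1 IL-1β cells did, so the control count depends on the limit. At a limit of 3 members, 53 control and 9 IL-1β cells passed. At a limit of 8 members, 31 control and 4 IL-1β cells remained. The most members found in 1 cell were 17 in control and 16 in IL-1β epithelium.

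**Figure D3:**
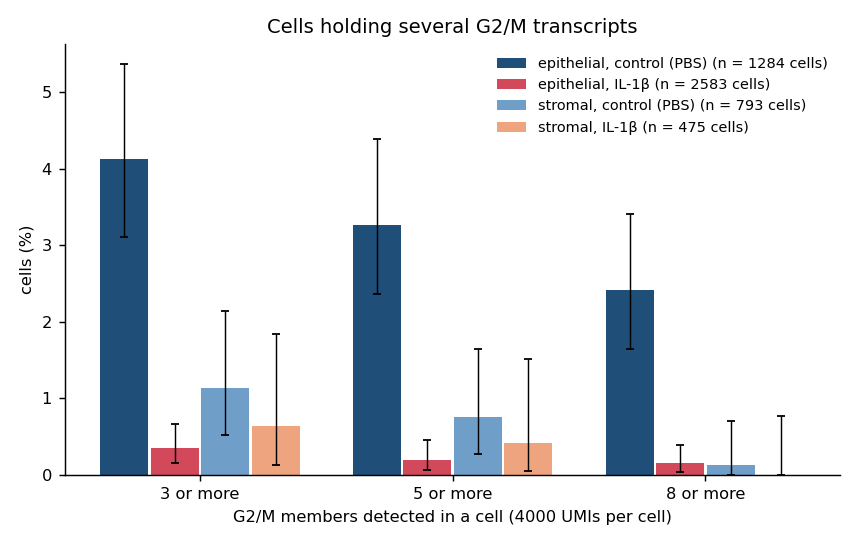
Share of cells with 3, 5 or 8 or more of the 26 G2/M members after thinning to 4000 UMIs, by compartment and library, with 95% Clopper-Pearson intervals. The control epithelium reaches 3.27% at 5 or more members, and each of the other 3 groups stays under 1% at that limit, while control stroma is at 1.13% at 3 or more.

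These 42 cells held 79.6% of the G2/M UMIs of the control epithelium, 36.2% of its G1/S UMIs and 4.39% of its D-type cyclin UMIs. In the IL-1β epithelium the 5 cells held 42.0% of the 1586 G2/M UMIs and 4.29% of the G1/S UMIs. Most G1/S UMIs of both libraries were thus spread over cells without several G2/M transcripts. The 42 control cells had a median of 21876 UMIs before thinning, against 13803 in control epithelial cells with few members of either list. The 5 IL-1β cells had a median of 25241 UMIs, against 11289. Scrublet removed only 3 cells, so pairs of cells in 1 droplet remain. The part of doublets in these depths was not tested.

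Single genes were seen in few cells even there. A Mki67 UMI was found in 2.57% of control epithelial cells (1.78–3.59) and in 0.465% of IL-1β epithelial cells (0.24–0.81). For Top2a the shares were 2.57% (1.78–3.59) and 0.503% (0.268–0.859). As background, the control cluster led by Igfbp2, Pmp22 and Spock2 and highest in AT1 markers (AT1-like, 268 cells, median 12386 UMIs) had a Mki67 UMI in 1.49% of cells (0.408–3.78) and a Top2a UMI in 0.746% (0.0905–2.67). These are shares of the control library, and free RNA of the IL-1β library was not measured by them. Of the IL-1β epithelial cells with fewer than 5 other G2/M members, 0.349% held a Mki67 UMI and 0.388% a Top2a UMI, while each was found in 3 of the 5 cells with more. Pcna was found in 9.11% of control and 8.44% of IL-1β epithelial cells, against 9.33% of the AT1-like cells, so its share set neither library apart from the AT1-like cells.

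Phase members met in the same cells only in part. Of the 42 control cells, 9 also held 5 or more of the 15 G1/S members, and 33 did not, while 7 further cells passed for G1/S alone. The G1/S list is shorter, and 16 control epithelial cells passed for it at this depth against 68 without thinning. Cells that pass for both without thinning were not counted, so the part of detection in this split was not tested. Rrm2 was in 45.2% of the 42 cells (29.8–61.3) and in 1.29% of the other 1242 control epithelial cells (0.738–2.08). Pcna was in 35.7% (21.6–52) and 8.21%, and Mcm5 in 26.2% and 1.21%. Ccnd1, in contrast, was in 42.9% of the 42 cells (27.7–59) and in 47.3% of the others. When the gene itself was left out of the count of members, Mki67 was found in 52.5% of the 40 cells that passed and Cenpa in 71.1% of those that passed for it. Even in cells with many mitotic transcripts, each gene was therefore not found in a large share at this depth.

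Control cells with several G2/M members held the AT2 genes Sftpc and Lamp3 at levels close to those of the other control epithelial cells. They had 73355 CPM of Sftpc and 910 CPM of Lamp3, the lysosomal membrane gene of lamellar bodies, against 85099 and 752 CPM in cells with few members of either list. Hopx, a gene of AT1 cells, was at 9.36 and 88.0 CPM in the same order. The cells with few members include the AT1-like and Scgb1a1-led clusters, so they are not AT2 cells alone. The 5 IL-1β cells differed, with 6228 CPM of Sftpc against 58403 in the other IL-1β epithelial cells. Pooled, they had 4682 CPM of Scgb3a2, an airway secretoglobin, and 5536 CPM of the chemokine Ccl20, against 67.6 and 155 CPM. These 2 genes were not high in the same cells throughout. The 1 cell of the 5 that also held 5 or more G1/S members, with 35259 UMIs, had 17017 CPM of Ccl20 and 0 CPM of Scgb3a2. The pooled Ccl20 level thus leans on that cell. With 5 cells, these levels describe those cells alone.

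By cluster, the cells were concentrated. The listed cell cycle genes were left out when clusters were made, yet 1 cluster of 68 control and 3 IL-1β cells was still led by Ube2c, Cdc20 and Birc5, and it held 41 of the 42 control cells (60.3% of its control cells). It was formed without these genes but picked out by them as leading genes, so its level of them is no separate result. The other control cell lay in the Bex2-led cluster of 824 cells, which had the highest AT2 marker score of the epithelial clusters. In the 268 AT1-like cells there were 0, which allows a share of up to 1.12%. In the 80 cells of the Scgb1a1-led control cluster there were also 0, which allows up to 3.75%.

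Of the 5 IL-1β cells, 3 were among the 50 cells of a cluster led by Scgb3a1, Ccl20 and Scgb3a2 (6.0%, 1.25–16.5). One lay among the 636 cells led by Cxcl5 (0.157%), and the other in a cluster with fewer than 10 IL-1β cells. The Dmkn-led cluster, the most numerous with 950 IL-1β cells, had 0, which allows up to 0.316%. Clusters led by AW112010 and Gstm1, with 399 and 269 IL-1β cells, had 0 each and allow up to 0.752% and 1.12%. Most clusters belonged almost wholly to 1 library, so cluster and library cannot be told apart.

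**Figure D4:**
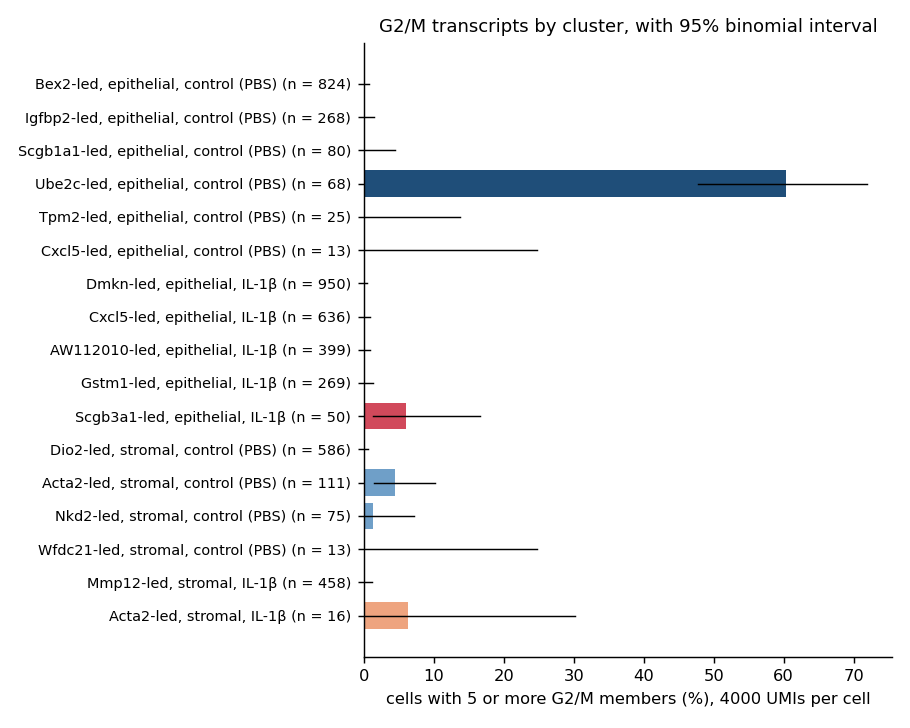
Share of cells with 5 or more G2/M members in the reported clusters with at least 10 cells of a library, named by its leading gene, with 95% Clopper-Pearson intervals. The Ube2c-led control cluster stands at 60.3%, the Scgb3a1-led IL-1β cluster at 6.0%, the Acta2-led control stromal cluster at 4.5% and the 16 Acta2-led IL-1β cells, of which 1 passed, at 6.25%.

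Without the Ube2c-led cluster the G2/M difference between libraries was small. The 26 members then held 41.7 CPM in control and 39.0 CPM in IL-1β epithelial cells (ratio 0.935, 0.852–1.03). Of 15 with 50 UMIs 1 was lower and 2 were higher by 2-fold, and the share of all genes without this cluster is not given. The G1/S members held 87.1 and 82.9 CPM (ratio 0.951, 0.893–1.01). When the Scgb3a1-led cluster was also left out, the G2/M ratio was 0.678 (0.614–0.749) and the G1/S ratio 0.902 (0.846–0.962). As the first cluster was picked out by these genes, the values only show where the UMIs lay.

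D-type cyclins did not share the G2/M pattern. In epithelial cells Ccnd1 was at 199 CPM in control and 136 CPM in IL-1β (ratio 0.685, 0.656–0.716). Ccnd3 was at 81.4 and 49.9 CPM (ratio 0.614, 0.572–0.659), and Ccnd2 at 37.9 and 18.0 CPM (ratio 0.475, 0.425–0.532). All were lower in the IL-1β library, Ccnd2 alone by 2-fold, and the ratio of their sum hardly moved without the Ube2c-led cluster (0.642 and 0.636). Ccnd2 was uneven over clusters, and 444 of its 724 control UMIs lay in the 268 AT1-like cells. Its pooled levels were 4.65% and 3.82% of the stromal ones, beside 2.12% and 2.17% for Col1a2. The parts of cluster make-up and of shared RNA in the 2-fold difference were not tested.

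Each D-type cyclin had its own pattern over epithelial clusters. Ccnd1 was at 225 CPM in the Bex2-led control cells and at 199 CPM in the Ube2c-led cluster, but at 111 CPM in AT1-like cells. In IL-1β cells it ran from 95.1 CPM in the Gstm1-led to 286 CPM in the Scgb3a1-led cluster. Ccnd2 was at 114 CPM in AT1-like cells and 15.8 CPM in the Bex2-led cells. That last level is 1.94% of the stromal one, and Col1a2 stood in the control epithelium at 2.12% of its stromal level, so Ccnd2 in Bex2-led cells was at the scale of shared RNA. The AT1-like level was 14.0% of the stromal one. Ccnd3 was also highest in AT1-like cells among the epithelial clusters, at 116 CPM, against 73.6 CPM in the Bex2-led cells.

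**Figure D5:**
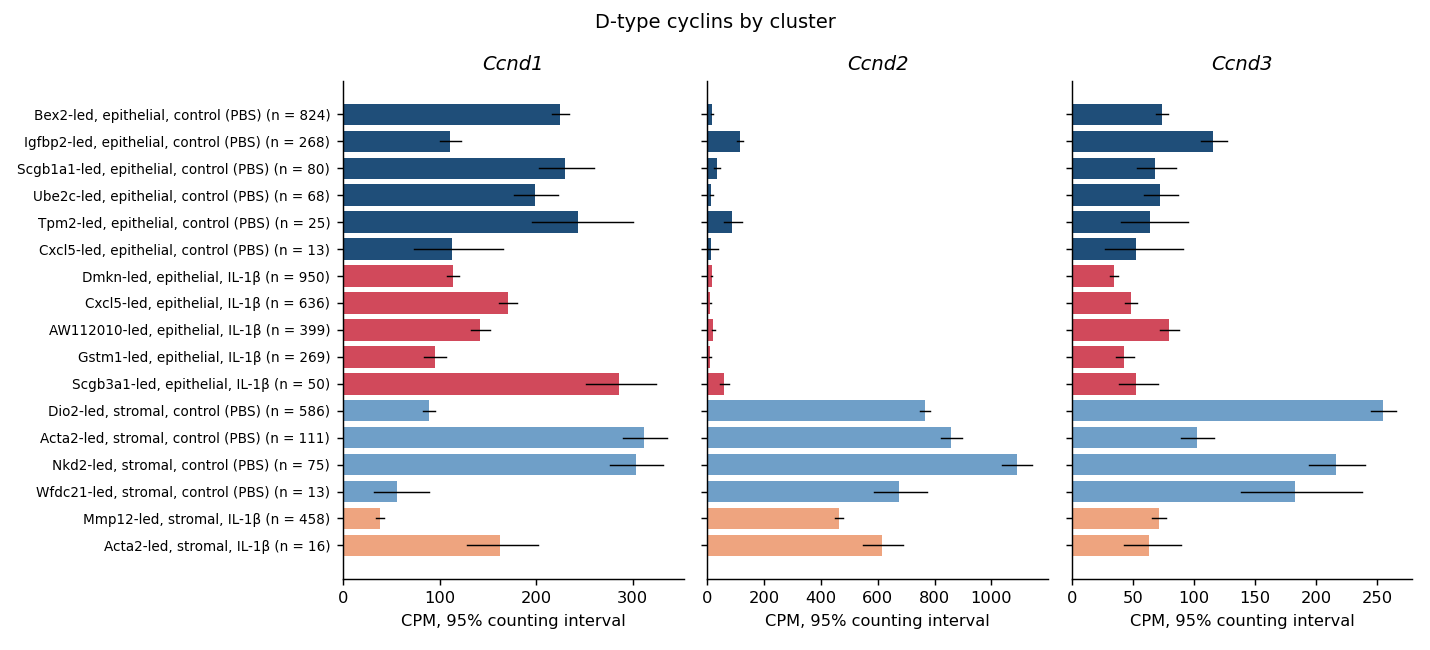
Level of the 3 D-type cyclin genes (CPM, bars from 0, 95% Poisson interval) in the reported clusters with at least 10 cells of a library, named by its leading gene. Ccnd2 is between 462 and 1090 CPM in stromal clusters and at most 114 CPM in epithelial ones.

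Stromal cells were marked by Ccnd2 (chr6:127125162-127152193). It was at 814 CPM in control stroma and 38 CPM in control epithelium, 21.5-fold (20–23.2), and at 471 and 18.0 CPM in the IL-1β library, 26.2-fold. A Ccnd2 UMI was found in 88.3% of control and 73.1% of IL-1β stromal cells at 4000 UMIs, against 9.58% and 5.34% of epithelial cells. Ccnd3 was 2.72-fold higher in control stroma than in control epithelium, and Ccnd1 was at 0.76 of the epithelial level. In the IL-1β library Ccnd3 was 1.42-fold higher in stroma (1.30–1.56) and Ccnd1 was at 0.326 of the epithelial level (0.294–0.36).

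Both other D-type cyclins were lower in IL-1β stroma. Ccnd1 was at 151 CPM in control and 44.4 CPM in IL-1β stromal cells (ratio 0.294, 0.264–0.326), and Ccnd3 at 222 and 71.1 CPM (ratio 0.321, 0.294–0.349). Ccnd2 had a ratio of 0.578 (0.558–0.599). In this comparison 11.7% of 11358 genes were lower and 4.23% higher by 2-fold or more, and the median of all genes was −0.33 on the log2 scale. Ccnd1 was unevenly spread in the control stroma, at 312 CPM in the 111 cells led by Acta2 and Tagln and 303 CPM in the 75 led by Nkd2, but 88.6 CPM in the 586 led by Dio2. The Acta2-led cells of the IL-1β library, 16 in number, had 162 CPM and the 458 Mmp12-led cells 37.8 CPM.

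G2/M members were scarce in stroma. Their sum was 62.4 CPM (58.2–66.7) in control and 39.2 CPM (35.3–43.4) in IL-1β stromal cells, a ratio of 0.629 (0.555–0.712). Only 7 of 26 reached 50 UMIs in this pair. Of these, Top2a (44 and 6 UMIs, ratio 0.195, 0.068–0.46), Cenpf (0.167, 0.0644–0.366) and Birc5 (0.383, 0.201–0.687) were lower by 2-fold or more, and with the 10% of cells of highest doublet score removed 0 were. Beside these stand the 11.7% of all genes lower by that much in this comparison and the all-gene median of −0.33. The ratio of Ccnb2 was 1.45 (1.02–2.07) and that of Cdk1 0.673 (0.522–0.863). For Mki67 there were 27 and 4 UMIs, or 2.00 and 0.42 CPM. Stromal Cdc20 and Ube2c stood at 9.17% and 14.3% of their epithelial levels in control, and at 25.8% and 44.8% in IL-1β. Stromal Top2a was at 3.25 CPM against 16.3 CPM in control epithelium, and at 32.9% of the epithelial level in IL-1β. Sftpc, the scale of shared RNA, stood at 4.46% and 7.11%. The part of shared RNA in the stromal G2/M sums and in their ratio was not tested.

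Cells with 5 or more G2/M members were 6 of 793 in control stroma (0.757%, 0.278–1.64) and 2 of 475 in IL-1β stroma (0.421%, 0.051–1.51). These counting intervals overlapped, and the spread between cultures was not measured. The 6 control cells had 3135 CPM of Sftpc and 2611 CPM of Col1a2, against 3774 and 1439 CPM in the other control stromal cells. Their median doublet score was 0.174 against 0.103, their median depth 19918 against 15649 UMIs, and they held a median of 5 against 4 epithelial markers, and the part of doublets was not tested. The Acta2-led cluster held 5 of the 6 (4.5% of its 111 control cells, 1.48–10.2), and the Nkd2-led cluster held the other. In the Dio2-led cluster there were 0 of 586, which allows up to 0.512%. One of the 2 IL-1β cells was Acta2-led as well. Acta2 and Tagln encode contractile proteins of myofibroblasts and smooth muscle.

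Compared with control epithelium, control stroma had 25 of 26 G2/M members lower by 2-fold or more, beside 15.7% of 12099 genes lower and 21.2% higher. Cdk1 was the exception, at 14.9 CPM in stroma and 12.5 CPM in epithelium (ratio 1.19, 0.982–1.44). A Cdk1 UMI was found in 5.93% of control stromal cells (4.39–7.80), and 46 of the 47 cells with it had fewer than 5 of the other G2/M members. In control epithelium 19 of 25 cells with a Cdk1 UMI had 5 or more of the others. In IL-1β cells the stroma was 3.13-fold higher in Cdk1 and 2.57-fold higher in Ccnb2, while 8 of the 15 members with 50 UMIs were lower, beside 23.0% of genes lower and 14.0% higher. The ratio of the IL-1β sums was 0.77 (0.686–0.862), and 1.01 (0.894–1.13) without the Ube2c-led cluster. That of the control sums was 0.235 (0.218–0.253), and 1.497 (1.354–1.654) without this cluster, so its direction turned. Of 11 members with 50 UMIs there, 4 were higher in stroma by 2-fold and 3 were lower. The lower control stromal level thus held only with the Ube2c-led cells, which were picked out by these genes.

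G1/S members were nearly alike in sum between stromal libraries, at 90.0 CPM in control and 84.7 CPM in IL-1β (ratio 0.941, 0.86–1.03). Of 10 with 50 UMIs, Mcm4 was lower by 2-fold (ratio 0.444, 0.286–0.67), and it was not past that limit once the median of all genes was set to a ratio of 1. Beside it stand 11.7% of all genes lower by that much in this comparison, so this count is near the background. Tyms was at 14.9 and 21.3 CPM (ratio 1.42, 1.17–1.74). Between control compartments the stromal over epithelial ratio of the G1/S sums was 0.581 (0.544–0.622), and 1.03 (0.958–1.11) without the Ube2c-led cluster. Of 14 members with 50 UMIs there, 7 were lower in stroma by 2-fold and 1, Ccne1, was higher. Beside these stand 15.7% of all genes lower and 21.2% higher. In the IL-1β library this ratio of sums was 1.01 (0.931–1.09). Ccne1 was 2.03-fold higher in control stroma than in control epithelium (1.46–2.84) and 3.46-fold in the IL-1β library. Cells with 5 or more G1/S members numbered 1 in each stromal library.

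Other genes of the cycle were read from fixed lists. Of 33 further G1/S genes with 50 UMIs in epithelial cells, 10 were lower in the IL-1β library by 2-fold or more and 0 higher, and of 42 further G2/M genes 21 were lower and 0 higher, with median log2 ratios of −0.72 and −1.02. Among all genes 4.62% were lower and 7.23% higher, and the median was 0.06. The lowest were Kif4, a chromosome-condensing kinesin, with 50 and 3 UMIs, and Ckap2l, with 67 and 8. Pttg1, which encodes securin, had the highest ratio of its list (1.55, 1.42–1.70), at 35.7 CPM in control and 55.4 CPM in IL-1β epithelium. In the G1/S list the polymerase subunit gene Pold3 had the highest ratio, 1.2.

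Activators of the cycle were mostly within 2-fold. Foxm1, a transcription factor of the G2/M genes, had 64 UMIs in control and 6 in IL-1β epithelial cells (ratio 0.0576, 0.0204–0.132), and E2f1 was at 19.9 and 6.43 CPM (ratio 0.324, 0.271–0.385). Myc was at 1.93 and 6.30 CPM (ratio 3.26, 2.28–4.76) and Mycn at 9.67 and 16.0 CPM. These were the 2 lowest and 2 highest of 16 activators with 50 UMIs. Of the 16, 2 were lower and 1 was higher by 2-fold, beside 4.62% and 7.23% of all genes. In stromal cells 0 of 10 activators passed 2-fold, beside 11.7% of all genes lower and 4.23% higher, and E2f1 was at 58.4 and 56.5 CPM.

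Among 14 inhibitors of the cycle, 1 was higher by 2-fold in IL-1β epithelium and 0 were lower, beside 7.23% and 4.62% of all genes, so this count is near the background. This was Cdkn1c, the gene of p57, at 6.27 CPM in control and 16.8 CPM in IL-1β (ratio 2.68, 2.19–3.30). In stroma 5 of 13 were lower, beside 11.7% of all genes, and the lowest were Cdkn1c, at 47.5 and 7.51 CPM (ratio 0.158, 0.122–0.202), and Cdkn2c, the gene of p18, at 35.8 and 6.45 CPM (ratio 0.18, 0.136–0.235). Cdkn2a, which encodes p16 and ARF, was at 556 CPM in control and 431 CPM in IL-1β stroma, and at 26.2 and 20.4 CPM in epithelium. Those epithelial levels were 4.71% and 4.75% of the stromal ones, where Col1a2 stood at 2.12% and 2.17%. The pooled level was uneven over clusters. In control cells Cdkn2a was at 70.6 CPM in the AT1-like and 15.6 CPM in the Bex2-led cluster. In IL-1β cells it was at 41.0 CPM in the AW112010-led and 14.7 CPM in the Dmkn-led cluster. The antiproliferative gene Btg1 was at 182 and 290 CPM in epithelium (ratio 1.59) and at 473 and 458 CPM in stroma.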

How the data were processed

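The values deposited for each library are whole-number counts of unique molecules (UMIs) by gene and barcode, made by the authors using Cell Ranger and GRCm38. The submitters' processing notes also list mm9 and Scanpy 1.3.6. These counts still hold the barcodes and stromal cells that the methods filter out later. The libraries held 33965848 (control) and 41220175 (IL-1β) UMIs in 2101 and 3066 barcodes, of which 11 were shared.

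Barcodes with over 500 and under 7000 genes and over 2000 UMIs were kept (2083 and 3059). Scrublet followed the methods and removed 3 cells (0.0583%), too few for doublets to count as removed. Clusters were made in scanpy 1.11.5 (Leiden, resolution 1, 50 components, 15 neighbors) without the listed cell cycle genes. Each was put in the compartment whose markers were higher, and 4 control immune cells were set aside. Levels are summed UMIs per 1000000 (CPM) with exact Poisson intervals, ratios have exact conditional intervals, and shares have Clopper-Pearson intervals at 4000 UMIs per cell. A ratio needed 50 UMIs in the pair, and a count of 0 allows 3. No test was possible, since a condition is 1 library. Ratios and their intervals were tested on simulated counts. Thinning was checked on cells of these data, for the UMIs left in each cell only.

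The members are the 44 listed genes and all were found by symbol. From each other list the 2 lowest and 2 highest ratios in a compartment were to be named, and not all are printed. Members and lists were chosen with earlier results of these data known, and the compartment rule was set after clusters were seen. The Sftpc, Lamp3, Hopx, Scgb3a2, Ccl20 and Col1a2 levels in selected cells were chosen after values were seen. So were the comparisons of Cdkn2a, Ccnd2, Cdc20, Ube2c and Top2a with shared RNA, and the Cdkn2a levels by cluster. Gene positions are from GENCODE M21 (GRCm38). RefSeq promoter windows were found for 35 of 44 members. The alternatives varied cell and doublet filters, clustering, scaling, thinning, the seed and the limits. Results of 1 gene and of 1 epithelial cluster are not reported here.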

Additional observations from a re-analysis of the deposited data

Results flagged for a closer look

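For 2 members the ratio of IL-1β to control went in opposite directions in the compartments, with both intervals clear of 1, and the difference between compartments was not tested. Tyms, the thymidylate synthase gene, had a ratio of 0.764 (0.648–0.90) in epithelial and 1.42 (1.17–1.74) in stromal cells. Of its 268 control epithelial UMIs, 130 lay in the 68 Ube2c-led control cells, at 88.5 CPM. It was at 8.07 CPM in the Bex2-led and 7.19 CPM in the AT1-like control cells. In the reported IL-1β epithelial clusters it ran from 8.50 CPM (Dmkn-led) to 24.1 CPM (Scgb3a1-led). The lower epithelial level of Tyms in the IL-1β library was thus not seen against these 2 control clusters. Ccnb2, the gene of a mitotic cyclin, had a ratio of 0.185 (0.144–0.236) in epithelial and 1.45 (1.02–2.07) in stromal cells, from 67 control and 68 IL-1β stromal UMIs.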

How the results depend on the processing

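Under 21 alternatives, 250 of 292 values of the main comparisons stayed on the same side of 2-fold, within the interval of their share or within 1.5 times their count, and 0 of those past 2-fold changed sign. The median log2 G1/S ratio of stromal cells between libraries, −0.13, was near 0 and became 0.19 with the median ratio of genes set to 1, 0.11 without the top 10% of doublet scores, 0.15 at a minimum of 200 UMIs and 0.03 with compartments set by the markers of each cell. No paired analysis was possible because each condition has 1 library, and for the same reason no replicate could be left out. The counts of members past 2-fold depend on how many UMIs stand behind them. The shares of all genes past the fold under the alternatives are not given, so the counts below have no background beside them. Most cells hold both marker lists, and the parts of shared RNA and of doublets in this were not tested. In control epithelium, 37 of the 42 cells with 5 or more G2/M members held both, and 929 of 1235 with few members of either list. Removing such cells left 0 G1/S and 1 G2/M members past 2-fold in epithelial cells between libraries, and 0 and 0 in stromal cells. It left 0 and 1 between control compartments, and 0 G2/M members between IL-1β compartments, whose G1/S median log2 ratio turned from −0.44 to 0.90. The G2/M members that still had 50 UMIs had median log2 ratios of −2.99 between epithelial libraries and −3.68 between control compartments. With only 1 member past 2-fold in each, these medians rest on very few members, and the cause of the lower counts was not tested. Shares of cells with 5 or more G2/M members were then 1.61% and 0% in control and IL-1β epithelium and 3.13% in IL-1β stroma. In IL-1β stroma 1 of the 2 such cells and 442 of the 473 other cells held both lists. Its share therefore rests on very few cells and does not rank it above the other groups.

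At a minimum of 200 UMIs, 3 G1/S and 13 G2/M members were past 2-fold in epithelial cells between libraries, 0 and 0 in stromal cells, 3 and 10 between control compartments and 1 and 0 between IL-1β compartments. At a minimum of 1 UMI, 3 G1/S and 10 G2/M members were past it in stromal cells. With a fold of 3, the G1/S counts were 4 in epithelial cells, 0 in stromal cells, 5 between control compartments and 1 between IL-1β compartments. With a fold of 1.5, they were 3 in stromal cells and 8 between IL-1β compartments, and 5 G2/M members passed in stromal cells. The stromal G1/S count was 0 with the median ratio set to 1 and with the mean of CPM over cells, which also gave −0.57 as the median log2 G2/M ratio between IL-1β compartments. Without the top 10% of doublet scores, 0 G2/M members passed in stromal cells. Without the shares of all genes at these settings, the counts only show how the main ones move.

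The share of cells with 5 or more G2/M members in control epithelium was 4.98% without thinning, 2.18% at 2000 UMIs and 1.40% when a gene needed 2 UMIs, which gave 0.0387% in IL-1β epithelium. In control stroma it was 0.126% at 2000 UMIs, 0.126% with 2 UMIs and 0.126% at 8 members, and in IL-1β stroma 0% in each of these 3. The causes of these changes were not tested beyond the fewer UMIs or cells that each setting leaves.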
